A study of Mus musculus with 8 samples.

Results

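The GABA-B receptor is the metabotropic receptor for GABA, and 5 genes encode its parts and its KCTD auxiliary subunits: Gabbr1, Gabbr2, Kctd8, Kctd12 and Kctd16. They were taken by gene name from a table of 14353 genes, and all 5 had a row and were above the minimum level for testing. The study sequenced RNA of the ventral pallidum (VP) of mice homozygous for VGluT2-Cre and heterozygous for the RiboTag allele of Rpl22, with no drug or other treatment in either group. In these mice, cells that express Cre from the vGluT2 locus carry a hemagglutinin tag on the ribosomal protein Rpl22, so that an antibody collects their ribosomes with the mRNA being translated. That pulldown is the TRAP sample, and INPUT is RNA of the whole VP tissue, so both groups share the genotype, the mice and the dissection. The 8 libraries came from 4 pools of mice (VP1.6, VP2.2 and VP2.6, and as the last VP2.11), with 1 TRAP and 1 INPUT library each. A pool held tissue of 7 to 11 adult mice of both sexes, aged 9 to 12 weeks in VP1.6 and 10 to 16 weeks in the others, and 38 mice were used in all. Cre also marks cells that expressed vGluT2 only earlier in life, and the tag does not separate subtypes of vGluT2 neurons.

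A functional GABA-B receptor is an obligatory pair. The Gabbr1 protein binds GABA, and the Gabbr2 protein carries its partner to the cell surface and couples the pair to Gi/o proteins. KCTD8, KCTD12 and KCTD16 bind to the tail of Gabbr2 and to the G protein beta and gamma subunits, and they set how fast the response begins and how strongly it desensitizes. KCTD12 is known for rapid desensitization, whereas KCTD8 and KCTD16 give more sustained responses. Downstream, the receptor opens GIRK potassium channels, inhibits presynaptic calcium channels and lowers adenylyl cyclase activity. The VP receives dense GABAergic input from the ventral striatum, so neurons of the VP are targets of this receptor.

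The pulldown was checked with Slc17a6, which encodes vGluT2. Slc17a6 was at 143 ± 13.6 CPM (read counts scaled to the size of the library, mean ± SD, n = 4 libraries) in TRAP and 25.9 ± 10.3 CPM in INPUT, a log2 fold change of 2.55 (limma with the pool as a block, adjusted p = 7.3e-06). Of the pan-neuronal markers, 4 of 5 were higher in TRAP, and their summed level was 19041 to 27473 CPM in TRAP and 5480 to 10591 CPM in INPUT, most of it from Snap25 in TRAP. Lower in TRAP were 5 of 5 striatal medium spiny neuron markers, 4 of 5 astrocyte markers, 4 of 5 oligodendrocyte markers and 3 of 5 microglia markers. These lists still summed to 181 to 278, 150 to 253, 900 to 1631 and 23.7 to 31.8 CPM in TRAP, against 461 to 650, 343 to 502, 3506 to 3807 and 78.8 to 126 CPM in INPUT, so that no TRAP library was free of them. Of 3 cholinergic markers 1 was lower, the scarcest of them, and none was called higher. Their median log2 fold change was 0.70, and their sum was 87.8 to 137 CPM in TRAP against 39.4 to 84.1 CPM in INPUT. That sum was higher in TRAP in every pool, by 0.06 (VP2.11) to 1.80 (VP2.2) on the log2 scale. Of 3 endothelial markers with a row 1 was higher. Gad1 and Gad2, which encode enzymes of GABA synthesis, did not pass the test. They were at 613 ± 145 and 528 ± 142 CPM in TRAP. Those values exceed that of Slc17a6, but CPM is not scaled to exon length and does not rank genes by level.

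The first comparison asked which of the 5 genes differ between the RNA translated in vGluT2 neurons and the RNA of the whole VP. Gabbr2 was higher in TRAP by 2.12-fold, and the other 4 did not pass the test. Of the 5 genes, 1 was therefore called higher and 0 lower, where 15.4% of the 14249 genes tested were called higher and 16.8% lower (32.2% in all). With 5 genes, a count of 1 is near what the table as a whole gives. Without the pool as a block, the table called 23.2% of genes higher and 24.8% lower (47.9% in all), and among the 5 genes the call was again that of Gabbr2.

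**Figure D1:**
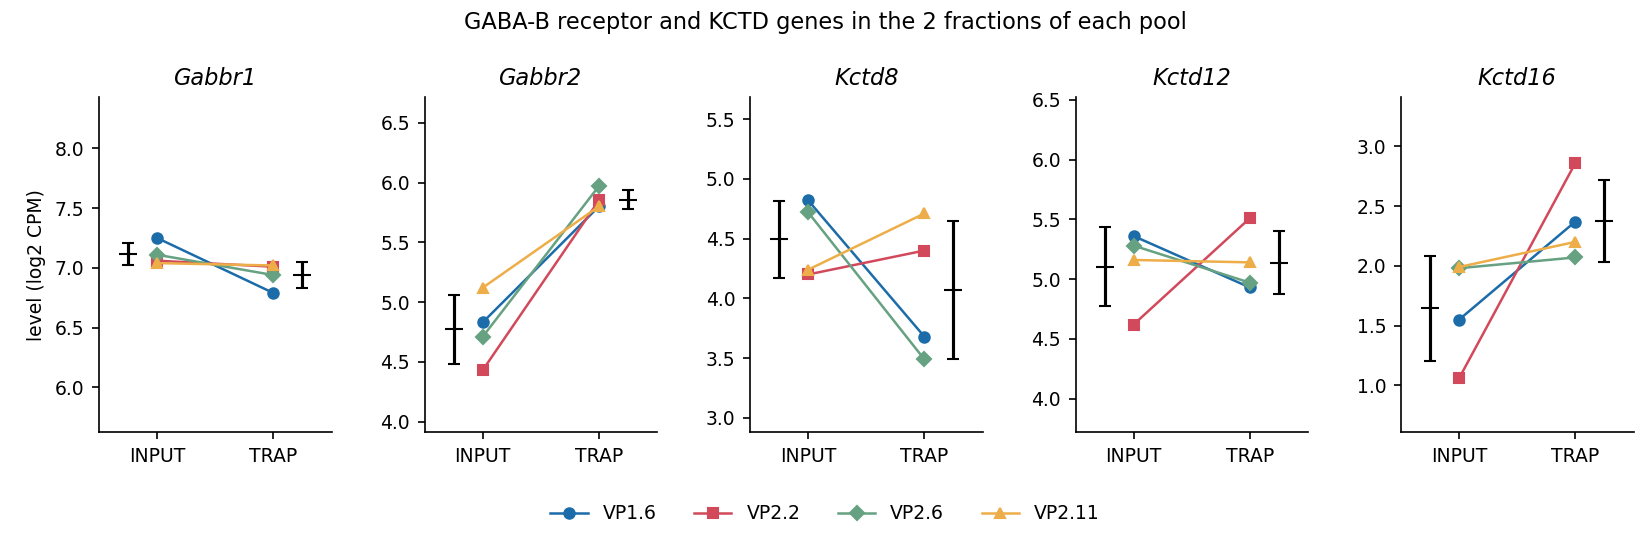
Level of each gene (log2 CPM) in the INPUT and TRAP library of each pool, with a line joining the libraries of a pool and black bars for the mean ± SD of the 4 libraries of a fraction. Every panel spans the same log2 range, Gabbr2 is higher in TRAP in all 4 pools, and the Kctd8 lines slope down in VP1.6 and VP2.6 but up in VP2.2 and VP2.11.

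Gabbr1 (ENSMUSG00000024462, GRCm38 chromosome 17, 37045966 to 37075067, plus strand, 22 merged exons) encodes the GABA-binding subunit. In TRAP it was at 110, 129, 123 and 130 CPM in the 4 pools, in the order given above, and in INPUT at 152, 134, 138 and 132 CPM. All 4 TRAP libraries lay below all 4 INPUT libraries, though in VP2.2 and VP2.11 the libraries of a pool were nearly level. Across the table, 24.4% of genes had TRAP libraries wholly below INPUT. The log2 fold change was -0.18 (95% interval -0.62 to 0.27, limma with the pool as a block), with an adjusted p of 0.55, and of 0.23 without the block. Gabbr1 is read from its own promoters as a long and a short isoform, GABA-B1a and GABA-B1b, which a value per gene sums.

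Gabbr2 (ENSMUSG00000039809, chromosome 4, 46662305 to 46991873, minus strand, 21 merged exons) encodes the subunit that couples to the G protein and that KCTD proteins bind. Its level was 55.6, 57.8, 62.7 and 55.7 CPM in the TRAP libraries, in the same order of pools. The INPUT libraries of the same pools held 28.4, 21.6, 26.2 and 34.8 CPM. The fractions did not overlap, the TRAP libraries lay close together, and Gabbr2 was higher in TRAP in 4 of 4 pools, by 0.68 (VP2.11) to 1.42 (VP2.2) on the log2 scale. A TRAP range wholly above INPUT was found for 23.3% of genes. The log2 fold change was 1.08 ± 0.23 (SE), which is 2.12-fold (95% interval 1.51 to 2.97), with an adjusted p of 0.0027 in limma with the pool as a block and of 0.00046 without it. Pan-neuronal markers rose beside it, by a median log2 fold change of 0.95. Their sum differed by 0.85 to 2.12 in single pools, but Snap25, a protein of the vesicle fusion machinery, made up 74.9 to 82.4% of it in TRAP, and without Snap25 the sum of the other 4 markers differed by 0.56 to 1.18. The part of neuronal enrichment in the Gabbr2 difference was not tested. In bulk RNA of this kind, fewer cells of a type and less RNA per cell cannot be told apart.

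Kctd8 (ENSMUSG00000037653, chromosome 5, 69109285 to 69341679, minus strand, 3 merged exons) differed in opposite directions in different pools. In TRAP it was at 12.9, 21.2, 11.3 and 26.2 CPM in the 4 pools, in the order given above, and in INPUT at 28.2, 18.4, 26.3 and 18.9 CPM. The libraries of VP1.6 and VP2.6 held less Kctd8 in TRAP than in INPUT (log2 differences of -1.14 and -1.23), whereas those of VP2.2 and VP2.11 held more (0.20 and 0.47). Pools of both signs were found for 52.1% of all genes tested. The ranges of the fractions overlapped. The log2 fold change of -0.42 (95% interval -1.09 to 0.24) had an adjusted p of 0.32 in limma with the pool as a block and 0.23 without it. Weighting the libraries by their estimated quality moved it to -0.82 with an adjusted p of 0.015, so the call for Kctd8 rests on how much weight single libraries are given.

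Kctd12 (ENSMUSG00000098557, chromosome 14, 102976581 to 102982637, minus strand, 1 exon) was at nearly the same mean level in both fractions. Its TRAP level was 30.5, 45.5, 31.4 and 35.3 CPM, in the order VP1.6, VP2.2, VP2.6, VP2.11, and its INPUT level 41.1, 24.6, 38.8 and 35.8 CPM. VP2.2 held both the highest TRAP and the lowest INPUT value and was the single pool with more Kctd12 in TRAP, and the ranges overlapped. The log2 fold change was 0.03 (95% interval -0.52 to 0.58, limma, adjusted p = 0.94), and the interval leaves room for a difference of over 0.5 either way. Of its 6057 exon bases, 3805 are shared with the exon of a long noncoding RNA on the opposite strand, Gm26778, which has no row in the table. The authors counted unambiguous reads, and how the counting treated strand is not given in the sources used here. Reads over the shared bases may therefore be missing from the Kctd12 count. The levels per kb, ratios and shares of Kctd12 given below carry that limit.

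Kctd16 (ENSMUSG00000051401, chromosome 18, 40256962 to 40531630, plus strand, 10 merged exons) was the least abundant of the 5. It was at 5.17, 7.26, 4.21 and 4.59 CPM in TRAP and 2.93, 2.09, 3.95 and 3.97 CPM in INPUT, in the same order of pools. TRAP was above INPUT in 4 of 4 pools and the ranges did not overlap, as was found for 23.3% of genes. The difference was 1.80 and 0.82 on the log2 scale in VP2.2 and VP1.6, but 0.21 and 0.09 in VP2.11 and VP2.6. The log2 fold change was 0.73 (95% interval -0.15 to 1.61), with an adjusted p of 0.19 in limma with the pool as a block and 0.055 without it. Leaving out VP2.2 brought the estimate to 0.37, so that the size of the Kctd16 difference rests largely on that pool.

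**Figure D2:**
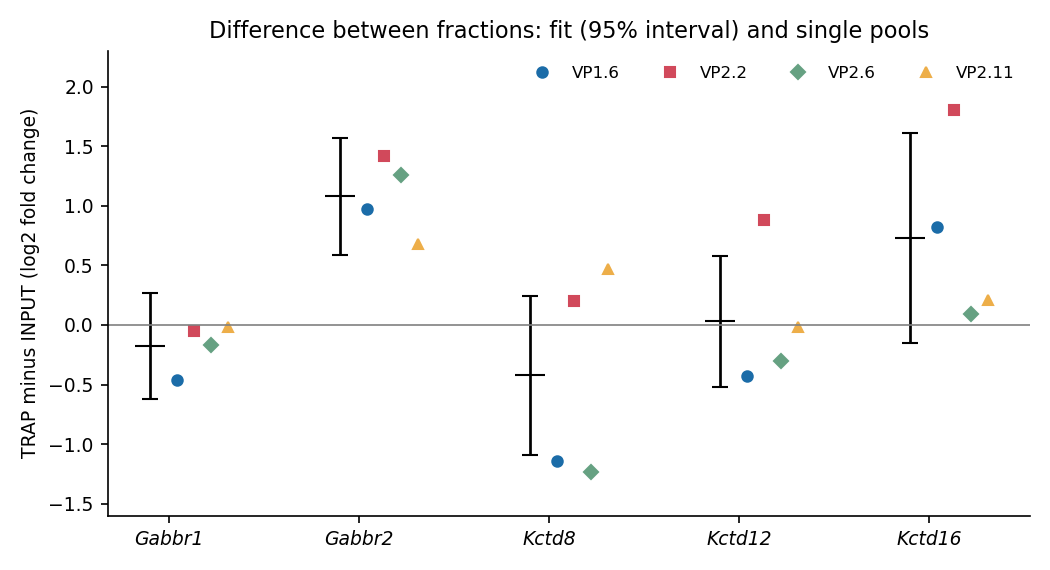
TRAP minus INPUT (log2 fold change) of the 5 genes, as the fitted value with its 95% interval (black) and as the difference within each pool (coloured points). The interval of Gabbr2, 0.59 to 1.57, is the one that does not reach 0, and the Kctd8 points lie on both sides of 0.

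Levels were then compared between genes, for which CPM was divided by exon length (CPM per kb). In TRAP, Gabbr1 was at 15.8 ± 1.16 CPM per kb (SD, n = 4), Gabbr2 at 8.67 ± 0.50, Kctd12 at 5.88 ± 1.13, Kctd8 at 5.30 ± 2.09 and Kctd16 at 1.53 ± 0.392. Neighbours in this order did not overlap, except Kctd12 and Kctd8, which were in that order in 3 of 4 libraries. In INPUT, Gabbr1 at 17.9 ± 1.19 CPM per kb was followed by Kctd8 at 6.81 ± 1.5, Kctd12 at 5.79 ± 1.2, Gabbr2 at 4.15 ± 0.82 and Kctd16 at 0.93 ± 0.261. The INPUT range of Kctd12 (4.07 to 6.78) overlapped those of Kctd8 (5.47 to 8.37) and Gabbr2 (3.23 to 5.20), which did not overlap each other. Gabbr1 stood above and Kctd16 below these 3 genes. Gabbr2 was thus the second of the 5 in TRAP and the fourth in INPUT, and its level exceeded that of 69.2% of tested genes in TRAP and 52.2% in INPUT. Gabbr1 exceeded 79.8% and 81.2%, and Kctd16 29.1% and 18.2%.

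**Figure D3:**
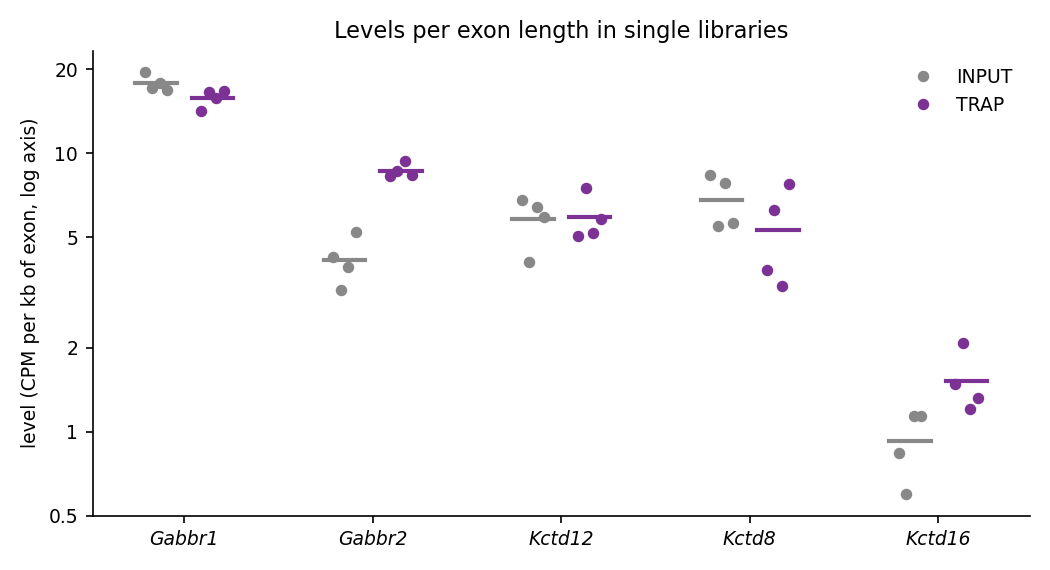
Level per exon length (CPM per kb, log axis) of each gene in the 4 INPUT (grey) and 4 TRAP (purple) libraries, with a line at the mean. Gabbr1 lies highest and Kctd16 lowest in both fractions, and Gabbr2 moves from 4.15 in INPUT to 8.67 in TRAP.

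The next comparison asked whether the balance of subunits within a library differs between the fractions. There was more Gabbr2 per Gabbr1 in TRAP, at 0.548 (library range 0.498 to 0.593) against 0.229 (0.188 to 0.307) in INPUT, both as geometric means per kb, so that the ratio was 2.39-fold higher. It was higher in 4 of 4 pools, and the fractions did not overlap. Gabbr1 exceeded Gabbr2 in every library of both fractions. The exact permutation test over libraries (two-sided) gave p = 0.029, the smallest that 4 against 4 libraries allow, and an adjusted p of 0.057 over the 4 ratios examined, which misses 0.05.

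Among the KCTD genes, Kctd12 was lower relative to Kctd16 in each TRAP library than in the INPUT of its pool, with a ratio of 3.89 (3.38 to 4.41) in TRAP and 6.31 (5.17 to 8.05) in INPUT. The exact permutation p was again 0.029, adjusted 0.057. The ratio of Kctd8 to Kctd16 was 3.34 (2.56 to 5.87) in TRAP and 7.43 (4.90 to 9.94) in INPUT, lower in 3 of 4 pools and with overlapping ranges (exact permutation p = 0.057, adjusted 0.076). The ratio of Kctd8 to Kctd12 was 0.859 in TRAP and 1.18 in INPUT (exact permutation p = 0.11, adjusted 0.11), and VP2.11 was the pool that went the other way in both. Of the summed level of the 3 KCTD genes, Kctd12 made up 47.1 ± 5.92% in TRAP and 42.7 ± 2.80% in INPUT. Kctd8 made up 40.7 ± 7.87% and 50.4 ± 4.24%, and Kctd16 12.2 ± 2.37% and 6.91 ± 1.68%. None of the 4 ratios passed the adjusted threshold, and with 4 pools a sign-flip test within pools cannot pass 0.05.

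**Figure D4:**
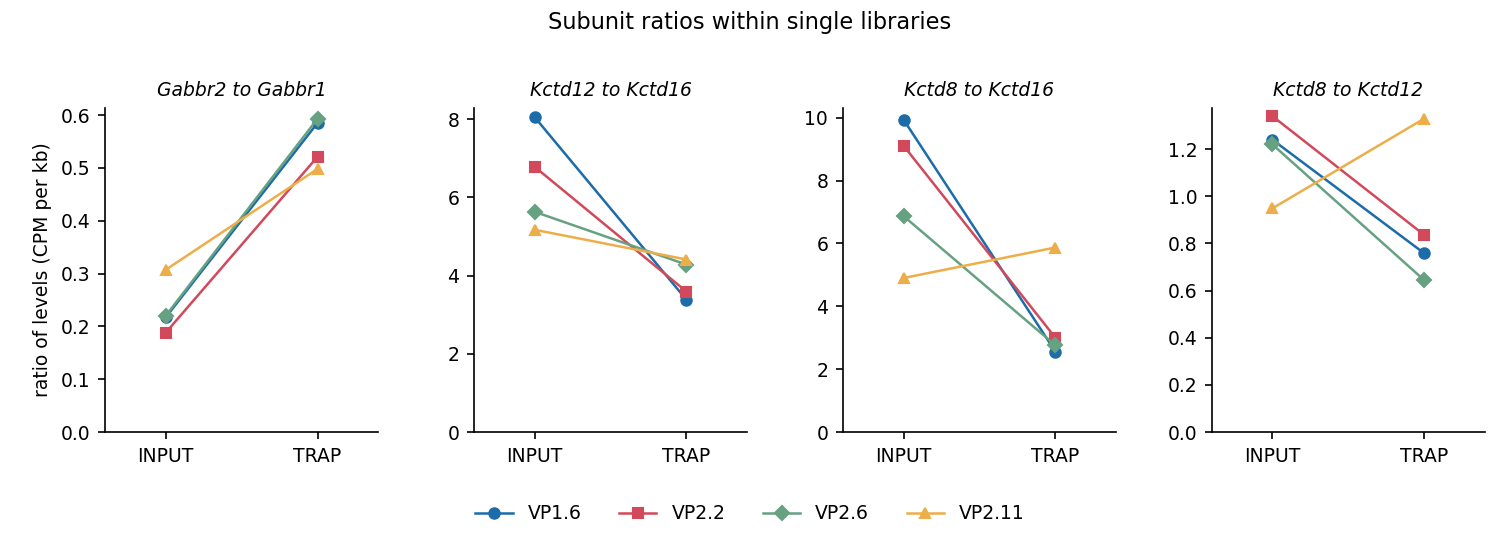
Ratio of the levels (CPM per kb) of 2 subunit genes in the INPUT and TRAP library of each pool, on axes that start at 0. In TRAP the ratio of Gabbr2 to Gabbr1 is higher and that of Kctd12 to Kctd16 lower in all 4 pools, while VP2.11 runs against the others in both ratios of Kctd8.

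For comparison within the family, 20 other KCTD genes were tested, most of which serve other functions such as adaptors of cullin ubiquitin ligases. Of these, 0 were higher and 2 lower in TRAP, where 15.4% of all genes tested were higher and 16.8% lower. The same shares stand beside the counts of the lists below. The median log2 fold change was -0.17 beside -0.05 over all genes tested. The 2 were Kctd5, at 7.59 ± 1.64 CPM in TRAP and 15.1 ± 1.68 in INPUT (log2 fold change -1.01, limma adjusted p = 0.016), and Kctd14, at 0.615 ± 0.531 and 2.55 ± 0.723 CPM (-2.67, adjusted p = 0.023), which lies near the minimum level. Without the block 4 were lower. Kctd12b, a close relative of Kctd12 named here after its values were seen, was at 1.27 ± 0.857 CPM in TRAP and 3.18 ± 1.90 in INPUT (log2 fold change -1.87, adjusted p = 0.11), and VP2.6 alone gave a difference of -6.13.

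Proteins that bind the receptor were considered next. App, the amyloid precursor protein, binds the extracellular sushi domain of GABA-B1a and was the one of 3 such partners to be higher, at 1472 ± 226 CPM in TRAP and 384 ± 77.0 in INPUT (log2 fold change 1.95, limma adjusted p = 5.3e-05). The median of the 3 was -0.10. Of 8 genes for trafficking and binding partners, 4 were higher and 0 lower, with a median of 0.56. Nsf, an ATPase of membrane fusion that binds the receptor, rose by 1.62 on the log2 scale (adjusted p = 0.00074). Usp14, a deubiquitinating enzyme of the proteasome, rose by 1.28 (adjusted p = 0.00055), and Prkaa2, a catalytic subunit of the AMP-activated kinase that phosphorylates the receptor, rose by 1.06 (adjusted p = 0.0066). Mpdz, a scaffold with PDZ domains that binds Gabbr2, rose by 0.91 (adjusted p = 0.023). Each of these 4 was higher in 4 of 4 pools.

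Of the effectors, 2 of 4 GIRK channel subunits were higher and 0 lower in TRAP, with a median log2 fold change of 1.18. Kcnj3, which encodes GIRK1, was at 40.3 ± 5.28 CPM in TRAP and 19.6 ± 5.85 in INPUT, a log2 fold change of 1.09 (limma adjusted p = 0.0074). Kcnj9, which encodes GIRK3, was at 18.6 ± 1.19 and 7.50 ± 2.04 CPM, a log2 fold change of 1.35 (adjusted p = 0.0025). Both were higher in 4 of 4 pools. The other two, named outside the naming rule to complete the family, are scarce and did not pass: Kcnj6, which encodes GIRK2, was at 2.39 ± 1.08 and 1.05 ± 0.597 CPM (1.27, adjusted p = 0.16), and Kcnj5, which encodes GIRK4, at 1.80 ± 0.692 and 2.55 ± 0.968 CPM (-0.53, adjusted p = 0.49). Pan-neuronal markers were higher in TRAP beside the GIRK subunits and the binding partners too (4 of 5, median log2 fold change 0.95), and their part in these differences was not tested.

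The G protein genes showed another pattern. Of 5 Gi/o alpha subunits, 0 were higher and 1 lower, with a median of -0.09, and the lower one was Gnai2, at 51.4 ± 5.90 CPM in TRAP and 86.5 ± 11.7 in INPUT (log2 fold change -0.75, limma adjusted p = 0.018). Of 15 beta and gamma subunits, 0 were higher and 6 lower, with a median of -0.52, and all 6 were gamma subunits. Gng7, which pairs with the olfactory type G alpha protein in striatal neurons, was at 74.4 ± 23.0 CPM in TRAP and 678 ± 279 in INPUT (log2 fold change -3.15, adjusted p = 2.2e-07). Gng11 (-3.23, adjusted p = 2e-05) and Gng5 (-3.14, adjusted p = 6.4e-06) fell as far, and all 3 were lower in TRAP in every pool. Striatal and glial markers fell beside them, as given above, and their part in these differences was not tested.

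Of 8 adenylyl cyclase genes tested, 1 was higher and 1 lower, with a median of 0.50. These counts are near the shares of all genes tested (15.4% higher and 16.8% lower). Adcy1, a cyclase stimulated by calcium and calmodulin, was at 51.6 ± 12.4 CPM in TRAP and 29.2 ± 10.3 in INPUT (log2 fold change 0.88, limma adjusted p = 0.039, 3 of 4 pools higher). Adcy5, the main cyclase of striatal neurons, was at 72.8 ± 18.1 and 148 ± 22.7 CPM (-1.04, adjusted p = 0.0039, lower in every pool). Neither presynaptic calcium channel pore passed the test, and Cacna1b, which encodes the N-type pore and is named after its values were seen, had a log2 fold change of 0.70 with an adjusted p of 0.052, or 0.015 without the block. Of 6 genes of the R7 RGS complex and Rgs4, which speed the end of G protein signals, 0 passed with the block and 2 were higher without it, with a median of 0.15.

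**Figure D5:**
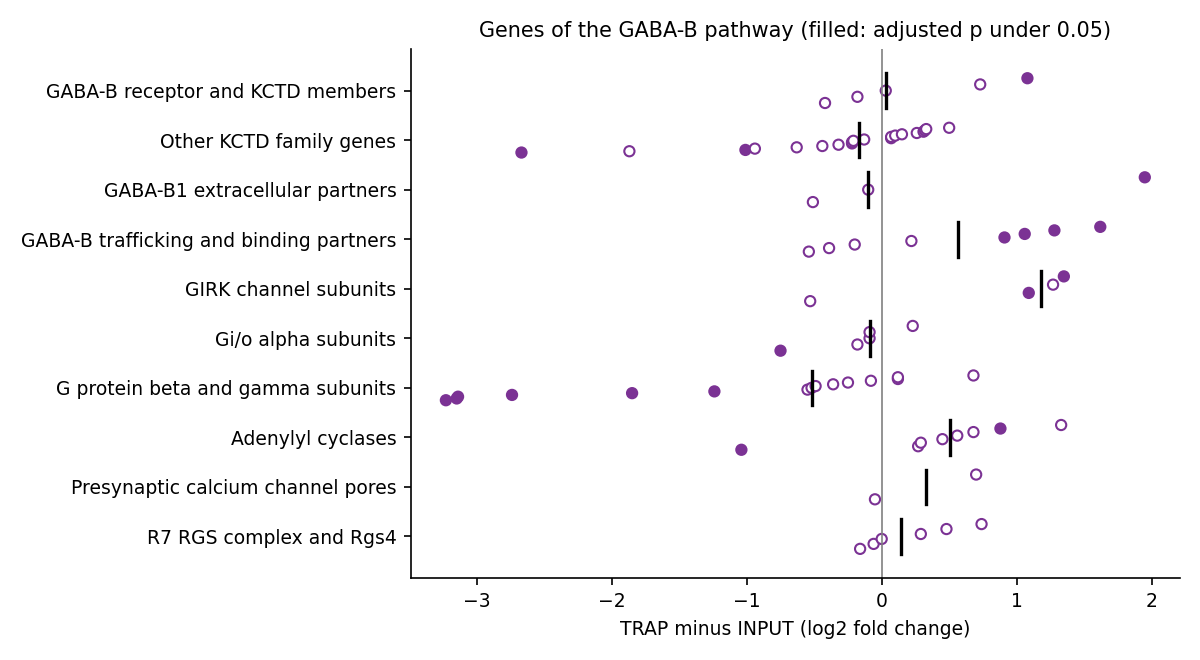
TRAP minus INPUT (log2 fold change) of each tested gene of the receptor, its partners and its effectors, by list, with filled points for an adjusted p under 0.05 (limma with the pool as a block) and a bar at the median of the list. The median is 1.18 for the GIRK subunits and -0.52 for the G protein beta and gamma subunits, against 0.03 for the 5 receptor and KCTD genes.

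Last, the genes whose profile over the 8 libraries was most like that of each of the 5 were found, by the root mean square difference in log2 CPM after each gene was centred on its own mean. Nearest to Gabbr2 were Tdrd7 (0.042), Atp2b4 (0.047), which encodes a plasma membrane calcium pump, and Cbln2 (0.047), which encodes a secreted synapse organizer. Nearest to Gabbr1 were Kctd1 (0.038), Aven (0.043) and Pih1d2 (0.047), and nearest to Kctd12 were Fmr1 (0.044), which encodes an RNA-binding protein, Ppp2r2a (0.045) and Snx25 (0.052). Kctd8 had Fam53b (0.075), Man1c1 (0.084) and Gm10118 (0.091) nearest, and Kctd16 had Aff2 (0.075), Nab1 (0.091) and Topbp1 (0.092). Among the 5 genes themselves, Gabbr1 and Kctd12 were closest (0.24), followed by Gabbr2 and Kctd16 (0.339), and Gabbr2 and Kctd8 were farthest apart (0.883). These are descriptions over 8 libraries that share pools.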

How the data were processed

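The authors aligned reads with STAR 2.5.1a to the mouse genome (GRCm38, Ensembl annotation), summed uniquely placed reads over each gene by featureCounts, scaled libraries by TMM and fitted limma with voom and sample weights. They deposited log2 CPM per gene and library. Their fold changes, intervals, p-values and transcript counts, also in the table, were not used. INPUT is named so by the labels, while the methods speak of an unbound fraction at sequencing. Of 14398 entries, 45 repeats were dropped. Repeated values among 1924 low genes did not give whole reads per library, so depth is unknown and no count test was run. Single libraries held 0 to 4 repeated values there, but TRAP minus INPUT repeated in 614 genes in VP2.2 and 871 in VP2.6. The deposited values may carry an adjustment shared by the 2 libraries of a pool, which was not tested. Levels, SDs and overlaps of libraries, and p-values without the block, are those of the deposited values.

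The test covered the 14249 genes with 3 or more libraries above 1 CPM and used limma 3.58.1 in R 4.3.3 (lmFit, eBayes with trend) with the pool as a replicate block. P-values were adjusted by Benjamini-Hochberg over all genes (threshold 0.05), and the fit without the block is given beside it. The pool pairs libraries because both come from the same mice. Deviations of libraries of 1 pool from their fraction means correlated at -0.745 to -0.495 across genes, and those of different pools at 0.0457 to 0.441. The 2 libraries of a pool thus deviated in opposite directions, and the block widened the SE of Gabbr2 (0.23, against 0.16 without it). Deviations from a fraction mean sum to 0, so the correlations of different pools are not independent of those within a pool. Subunit ratios were compared by exact permutation tests in python 3.11.15, and scipy 1.17.1 gave the Spearman correlation. P-values of the fit with the block set the TRAP minus INPUT difference against its spread from pool to pool, with variances moderated across genes. The permutation test treats the 8 libraries as separate and leaves out the pairing by pool.

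Exon lengths and positions came from GENCODE M21 (GRCm38), matched by identifier for 14349 genes. The genes and lists were chosen with earlier results of these data known. Named genes are the 5 receptor and KCTD genes, the 3 genes with the most similar profile to each, Slc17a6, and the called genes of each list (the 3 largest changes where over 8 genes were tested). Kcnj5, Kcnj6, Cacna1b, Kctd12b, Gad1 and Gad2 are named outside this rule. No list was tested as a set. Alternatives were the fit without the block, array weights, normalization, level filter, log2(CPM + 1), eBayes without trend, removal of the exon length trend, and each pool left out.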

Additional observations from a re-analysis of the deposited data

How the results depend on the processing

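Of 84 alternative log2 differences of the 5 genes and the 4 ratios, 79 kept their direction and side of the threshold, and of 96 alternative counts of called genes, 87 stayed within 1.5 times the count reported. The Gabbr2 difference kept its direction and its side of the threshold under every alternative run (log2 fold change 0.87 to 1.22, limma adjusted p 0.00018 to 0.026). The replicate block changed no call of the 5 genes. Without it 3300 genes (23.2% of those tested) were higher in TRAP in place of 2199 (15.4%), and 3530 lower in place of 2393. The effector genes tested were 4 GIRK, 5 Gi/o alpha, 15 G protein beta and gamma, 8 adenylyl cyclase, 2 calcium channel and 6 RGS genes. Effector genes called higher went from 3 to 7 without the block, and other KCTD genes called lower (20 tested) from 2 to 4. With array weights, 6 effector genes were higher, beside 2822 of all genes. Of the 5 genes 1 was then lower, beside 3191 of all genes, and it was Kctd8 (-0.82, limma adjusted p = 0.015, against a range of 0.015 to 0.80 over its alternatives). Quantile normalization gave 5 effector genes higher, beside 2389 of all genes. With 1 pool left out, effector genes called higher numbered 2 to 7 (7 without VP2.11), beside 1532 to 2123 of all genes (1863 without VP2.11). Other KCTD genes called lower then numbered 1 to 2 (1 without VP2.2 or without VP2.6), beside 1656 to 2230 of all genes. The Kctd12 value, near 0, changed sign with array weights (-0.19), quantile normalization (-0.03) and the exon length trend taken out (-0.13), and ran from -0.25 to 0.19 with 1 pool left out. Longer exons went with higher log2 fold changes across genes (Spearman rho 0.412, genes not being independent), and with that trend taken out Gabbr1 was at -0.46 (adjusted p = 0.067). Sign flips within pools, the paired form of the ratio test, gave an exact adjusted p of 0.25 for Gabbr2 to Gabbr1 (log2 difference 1.26). With 3 pools, exact tests cannot go below 0.10. The cause of these changes was not tested.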

Other observations

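Genes that make, release and clear GABA, the ligand of the receptor, were listed beside it. Of 7 tested, 0 were higher and 3 lower in TRAP, with a median log2 fold change of -0.05. Over all genes tested, 15.4% were higher and 16.8% lower. The other 4 did not pass, among them Gad1 at 613 ± 145 CPM in TRAP and 516 ± 170 in INPUT (0.30, limma adjusted p = 0.47). Gad2 was at 528 ± 142 and 560 ± 184 CPM (-0.05, adjusted p = 0.92). Slc6a13, a GABA transporter found mostly outside neurons, was at 1.17 ± 0.448 CPM in TRAP and 9.10 ± 1.42 in INPUT (n = 4 libraries, log2 fold change -3.03, limma adjusted p = 0.00025). Slc6a11, the GABA transporter of astrocytes, was at 16.2 ± 2.09 and 39.5 ± 7.96 CPM (-1.28, adjusted p = 0.0011), and Slc32a1, the vesicular GABA transporter, at 10.9 ± 3.71 and 25.5 ± 6.22 CPM (-1.26, adjusted p = 0.0055). Each of these 3 was lower in 4 of 4 pools. The summed level of the list was higher in TRAP in VP2.2 (log2 difference 1.32) and lower in VP1.6, VP2.6 and VP2.11 (-0.39, -0.17 and -0.13). VP2.2 was also the pool with the largest TRAP difference of Gabbr2, Kctd12 and Kctd16. This was not particular to those genes, as VP2.2 also led for the summed pan-neuronal (2.12), glutamatergic (2.56), cholinergic (1.80) and GIRK (1.76) lists. It did not lead for every list, and trafficking and binding partners were at 1.07 there and 1.83 in VP1.6.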
